A study of Mus musculus with 8 samples.

Results

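The Schlafen genes of mouse chromosome 11 are a family of neighbouring genes, and 7 of them (*Slfn1*, *Slfn2*, *Slfn3*, *Slfn4*, *Slfn5*, *Slfn8* and *Slfn9*) were followed here by their symbols among the 48321 gene symbols counted. Their RNA was measured in NK cells, the lymphocytes that kill infected and tumour cells without prior sensitization, freshly sorted as CD45+ TCRb- NK1.1+ cells from lung and spleen at steady state. The mice were C57/Bl6, either wild type (*Wt*) or *Ccl5* ΔPE/ΔPE (KO). In the KO the proximal enhancer upstream of the chemokine gene *Ccl5* was deleted in the germ line by genome editing, so every cell of these mice lacks it. The 4 groups (lung *Wt*, lung KO, spleen *Wt* and spleen KO) had 2 libraries each. The labels give no age or sex, and the study's methods give both sexes and ages from weeks to months for its mice in general. Separate mice are not named for the paired libraries in any source used here, so p-values measure only the spread between libraries, which may be technical.

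Schlafen proteins share an N-terminal Slfn box, and the family is sorted by size into short members (*Slfn1* and *Slfn2*), intermediate members (*Slfn3* and *Slfn4*) and long members with a helicase-like C-terminal part (*Slfn5*, *Slfn8*, *Slfn9* and others). Many of the genes respond to type I interferon, and the family was first described in developing and activated T cells. *Slfn2* keeps T cells and monocytes quiescent and protects tRNA from cleavage, and long members can cut tRNA or restrict viruses.

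The family lies in 263.8 kb of chromosome 11 (GRCm38, GENCODE M21). *Ccl5* lies on the same chromosome, from 83525778 to 83530518. *Slfn5* (82951349 to 82964840), *Slfn2* (83065112 to 83070678), *Slfn1* (83116849 to 83122670), *Slfn4* (83175186 to 83190216) and *Slfn3* (83191330 to 83215154) are on the plus strand. *Slfn9* (82978390 to 82991830) and *Slfn8* (83002158 to 83020810) are on the minus strand, as is *Ccl5*. The nearest member, *Slfn3*, ends 310.6 kb from *Ccl5*, and the farthest, *Slfn5*, 560.9 kb from it. The longest coding sequences were 337 codons in *Slfn1* and 378 in *Slfn2*, 640 in *Slfn3* and 602 in *Slfn4*, and 884 in *Slfn5* and 910 in both *Slfn8* and *Slfn9*.

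Close relatives in the cluster limit what reads of 50 bases can tell apart. The coding sequences of *Slfn8* and *Slfn9* were identical at 92.7% of 2730 aligned bases, and those of *Slfn3* and *Slfn4* at 94.6% of 1650. *Slfn1* and *Slfn2*, the short members, shared 71.5% of 970 aligned bases. The transcribed pseudogene *Slfn10-ps* matched *Slfn9* at 93.2% and *Slfn8* at 92.8% of 2724 aligned bases. Windows of 50 bases that also occurred exactly in a transcript of another gene made up 0.606% of *Slfn1*, 4.27% of *Slfn2*, 16% of *Slfn3*, 11.3% of *Slfn4*, 11.1% of *Slfn5*, 14.6% of *Slfn8* and 11.9% of *Slfn9*. These are exact matches to annotated transcripts only, and by them *Slfn1* and *Slfn2* were the most distinct of the 7. Values of *Slfn3*, *Slfn8* and *Slfn9* carry some uncertainty, since reads with more than 1 alignment were left out of the counts (26.9% to 29.9% of alignment lines per library). *Slfn5* overlaps its antisense gene *Slfn5os* in 559 exonic bases, and 467 of its 700 shared windows were shared with that gene. The strand setting of the counting is not given in the sources used here.

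The sequences before the transcription starts are shown for 4 members with contrasting behaviour in these cells, namely *Slfn1* (lower in KO), *Slfn2* (the most abundant), and the near-identical pair *Slfn8* and *Slfn9*. They come from RefSeq (GRCm38.p6), in which each of the 7 members had an entry, and each is the 250 bases upstream of a start. They lie at chr11:83116570-83116819 on the plus strand, chr11:83064862-83065111 on the plus strand, chr11:83020811-83021060 on the minus strand (the upstream start of 2) and chr11:82991831-82992080 on the minus strand. Capitals mark ACTTCCTGG in *Slfn1* and *Slfn2*, the interferon-stimulated response element core in *Slfn8* and *Slfn9*, and the RUNX core ACCACA in *Slfn8*.
*Slfn1*: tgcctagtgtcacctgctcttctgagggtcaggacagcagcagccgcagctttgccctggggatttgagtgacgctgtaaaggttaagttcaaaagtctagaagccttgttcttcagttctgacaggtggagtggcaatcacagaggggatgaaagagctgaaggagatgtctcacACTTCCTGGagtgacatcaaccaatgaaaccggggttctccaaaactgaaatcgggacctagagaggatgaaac
*Slfn2*: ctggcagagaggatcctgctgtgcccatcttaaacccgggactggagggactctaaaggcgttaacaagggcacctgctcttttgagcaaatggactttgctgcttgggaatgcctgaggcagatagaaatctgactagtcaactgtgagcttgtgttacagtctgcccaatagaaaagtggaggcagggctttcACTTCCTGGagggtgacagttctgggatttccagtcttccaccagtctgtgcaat
*Slfn8*: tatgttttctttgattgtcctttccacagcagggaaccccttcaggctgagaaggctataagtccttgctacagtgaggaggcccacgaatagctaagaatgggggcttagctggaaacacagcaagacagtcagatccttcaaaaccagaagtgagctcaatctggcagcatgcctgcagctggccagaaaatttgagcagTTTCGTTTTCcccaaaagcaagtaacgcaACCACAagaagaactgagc
*Slfn9*: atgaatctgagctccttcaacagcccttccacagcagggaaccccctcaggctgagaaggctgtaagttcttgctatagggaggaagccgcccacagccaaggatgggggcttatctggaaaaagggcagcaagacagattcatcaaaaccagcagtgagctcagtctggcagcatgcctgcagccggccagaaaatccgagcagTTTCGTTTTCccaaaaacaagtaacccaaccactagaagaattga

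The interferon-stimulated response element core was searched as GAAA followed, after any 2 bases, by GAAA, on both strands. It is the sequence type that factors of the IRF family bind, and it occurred in 2.98% of 32851 promoter windows of this length. Among the 7 members, *Slfn5*, *Slfn8* and *Slfn9* held it, beginning 155, 48 and 45 bases before the RefSeq start. The *Slfn5* window (chr11:82951852-82952101) lies inside the GENCODE span given above, which starts farther upstream. None of the short and intermediate members held this core. *Slfn8* and *Slfn9* had the same 10 bases, TTTCGTTTTC, and 206 of their 250 upstream bases were identical (82.4%), against 45.6% to 54.4% for every other pair of members under the same alignment. The longest run of bases common to *Slfn1*, *Slfn2*, *Slfn3* and *Slfn4* was ACTTCCTGG, sought after the sequences had been seen. It began 74, 55, 42 and 73 bases before their starts, and 0.7% of all windows held it on either strand. The surrounding 30 bases are given for these 4 genes, and for the interferon element of *Slfn5*.
*Slfn1*: agatgtctcacACTTCCTGGagtgacatca
*Slfn2*: gcagggctttcACTTCCTGGagggtgacag
*Slfn3*: tggatgacagaACTTCCTGGgggagggact
*Slfn4*: cttccggttatACTTCCTGGagtgacgaaa
*Slfn5*: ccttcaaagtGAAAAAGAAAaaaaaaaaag

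Of the other motifs searched on both strands, the RUNX core (ACCACA or ACCGCA, in 18.6% of windows) was found in *Slfn8* alone of the 7, and the AP-1 site TGANTCA (6.75% of windows) in *Slfn4* alone. The gamma-activated site TTCNNNGAA (7.02% of windows) was found in none of the 7. A match is only a description of these letters, and a missing match says nothing of sites elsewhere.

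Libraries held between 3132963 and 26482366 reads on genes, so that 3 reads, the floor used for a count of 0, were worth between 0.115 and 0.978 CPM, the count after scaling every library to the same TMM-adjusted total. These floors cover counting error only, whereas the confidence intervals come from the fitted model and include the spread between libraries. Replicate libraries differed by 1.23 to 1.48 times the variance that counting alone gives, so the spread behind all tests is small. Among the 12595 genes tested, 55.6% passed an FDR of 0.05 between KO and *Wt* in lung and 57.1% in spleen. *Ccl5* itself checked the labels: in lung it fell from 18900 ± 825 CPM (SD, n = 2) for *Wt* to 3087 ± 143 CPM for KO, and in spleen from 16140 ± 716 to 2550 ± 172 CPM (adjusted p = 2.3e-35 and 1.4e-35 by edgeR). Defining NK genes were abundant, and all 10 markers were detected in every group. Their summed CPM was 50870 to 52400 in lung *Wt* and 40810 to 41200 in lung KO. In spleen it was 37300 to 37880 for *Wt* and 48130 to 50430 for KO. Most of it came from *Gzma* and *Nkg7*, while *Tbx21*, *Prf1* and *Il2rb* moved the other way with genotype in both organs. The part of this shift in the Schlafen values was not tested.

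*Slfn2* alone made up most of the Schlafen reads. It took 61.4% to 74.6% of the reads on the 7 members in every library, and *Slfn8* another 20.2% to 30.7%. Per kb of exon, mean levels in spleen *Wt* were 164.8 CPM for *Slfn2*, 20.4 for *Slfn8*, 6.92 for *Slfn1*, 4.01 for *Slfn9*, 0.51 for *Slfn3* and 0.125 for *Slfn5*. The level per kb of *Slfn2* was the highest of the 7 in all 4 groups, and that of *Slfn8* came next in each. The pseudogene *Slfn10-ps* stood near *Slfn8*, at 16.4 to 22.6 CPM per kb in the 4 groups.

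*Slfn1*, a short member first described in T-cell development, was lower in KO NK cells of both organs. In lung it was at 3.97 and 3.88 CPM in the *Wt* libraries (32 and 15 reads) and at 1.63 and 0.95 CPM in KO (8 and 7 reads). In spleen it was at 14.7 and 11.1 CPM in *Wt* (59 and 95 reads) and at 6.84 and 3.9 CPM in KO (21 and 102 reads). Both KO libraries lay below both *Wt* libraries in each organ. The log2 difference was -1.67 ± 0.41 (SE) in lung (3.19-fold lower, 95% confidence interval -2.51 to -0.83, adjusted p = 0.00079 by edgeR's quasi-likelihood test). In spleen it was -1.52 ± 0.20 (2.88-fold lower, -1.93 to -1.12, adjusted p = 4.8e-08). The difference between the 2 effects, lung minus spleen, was -0.15, with an interval from -1.09 to 0.79 (adjusted p = 0.81), which is too wide to call the effects alike. Both calls were kept with every library left out in turn, though the spleen value was -0.85 (adjusted p = 0.031) without the second spleen KO library, which supplied 102 of the 123 spleen KO reads. In bulk RNA, fewer cells that express a gene and less of its RNA per cell cannot be told apart.

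**Figure D1:**
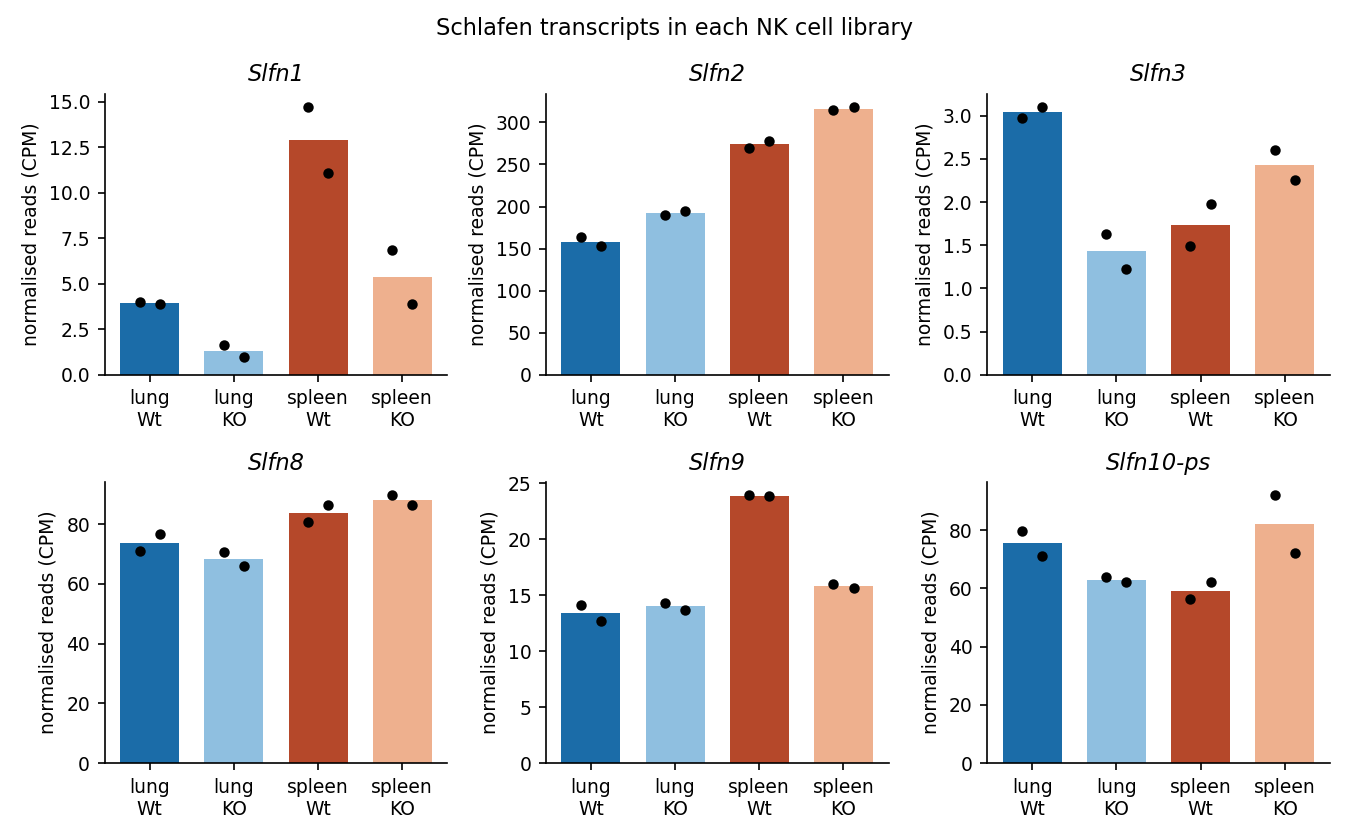
Normalised reads (CPM) of the 5 tested members and *Slfn10-ps* in each library. Points are the 2 libraries of a group and bars are their mean, and each panel has its own axis from 0. *Slfn1* is lower in KO than in *Wt* in both organs, *Slfn2* is higher, and *Slfn9* is highest in spleen *Wt*.

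*Slfn1* was also the member with the largest organ difference. In *Wt* it was 3.12-fold lower in lung than in spleen (log2 difference -1.64 ± 0.24, adjusted p = 4.2e-07) and in KO 3.46-fold lower (-1.79 ± 0.36, adjusted p = 4.4e-05). Without the second spleen KO library the KO difference was -2.45. Its groups ranked spleen *Wt*, spleen KO, lung *Wt* and lung KO. The second spleen KO library, at 3.9 CPM, lay within the range of lung *Wt*, so these neighbours did not differ beyond their spread.

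*Slfn2*, the quiescence factor, was modestly higher in KO in both organs. Its levels in lung were 163.6 and 152.8 CPM in *Wt* and 190.3 and 194.8 CPM in KO. In spleen they were 270 and 278.5 CPM in *Wt* and 314.5 and 318.5 CPM in KO. The 4 groups did not overlap and ranked spleen KO, spleen *Wt*, lung KO and lung *Wt*. The increase in KO was 1.21-fold in lung (log2 difference 0.27 ± 0.05, adjusted p = 3.4e-05) and 1.15-fold in spleen (0.21 ± 0.04, adjusted p = 0.00014), both under the 1.5-fold limit. The difference between the effects was 0.07 (interval -0.07 to 0.21, adjusted p = 0.40). Between organs the difference was larger, since lung was 1.72-fold lower than spleen in *Wt* (-0.79 ± 0.05, adjusted p = 5.3e-16) and 1.65-fold lower in KO (-0.72 ± 0.05, adjusted p = 2.8e-16). With an assumed coefficient of variation of 0.2 both genotype calls were lost (adjusted p = 0.62 in lung and 0.75 in spleen). The organ call was then kept in *Wt* (adjusted p = 0.045) and lost in KO (0.07).

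The intermediate members were scarce. *Slfn4*, known from myeloid cells, had 0 reads in all 8 libraries, which allows at most 0.115 to 0.978 CPM per library. Of 14 markers of monocytes, macrophages and neutrophils, *S100a8*, *S100a9*, *Fcgr1*, *Adgre1* and *Mpo* were at 0 in every group, while the list summed to 637 to 899 CPM. Most of that sum came from *Itgam* (293 to 437 CPM) and *Ly6c2* (297 to 469 CPM). Of the 7 tested markers of this list, 3 were higher and 3 lower in KO in lung, against 29.2% and 26.4% of all genes. *Cebpb*, for example, was at 6.45 and 5.43 CPM in lung *Wt* and at 26.6 and 21.4 CPM in lung KO. *Ly6c2* went the other way in lung, from 469 and 455.8 CPM in *Wt* to 348 and 361 CPM in KO. In spleen *Cebpb* was lower in KO, at 5.49 and 4.55 CPM in *Wt* and 0.65 and 0.76 CPM in KO. *Slfn3* was detected in each library with 6 to 59 reads. Its lung libraries were at 2.98 and 3.1 CPM for *Wt* and at 1.63 and 1.22 CPM for KO. For spleen the values were 1.5 and 1.98 CPM (*Wt*) and 2.61 and 2.26 CPM (KO). Lung *Wt* and spleen KO were thus the higher groups, and lung KO and spleen *Wt* overlapped at the lower end.

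In lung the log2 difference of *Slfn3* was -1.11 ± 0.40 (2.16-fold lower in KO, adjusted p = 0.016), and in spleen it was 0.33 ± 0.34 (interval -0.35 to 1.01, adjusted p = 0.42). The effects differed by -1.44 ± 0.52 (adjusted p = 0.015). These calls rest on few reads. The lung call was lost without the first lung *Wt* library (adjusted p = 0.10) or the second lung KO library (0.19), and by DESeq2 (0.17). The difference between organs was lost without either of these (0.057 and 0.11), without the second spleen KO library (0.079), by DESeq2 (0.16), and with an assumed coefficient of variation of 0.2 (0.13). Lung and spleen differed by 0.72 ± 0.37 in *Wt* (adjusted p = 0.093) and by -0.72 ± 0.36 in KO (adjusted p = 0.08), and neither passed.

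The long members were led by *Slfn8*, whose level hardly varied with genotype. Its lung libraries held 70.9 and 76.5 CPM for *Wt* and 70.7 and 65.8 CPM for KO. The spleen libraries held 80.8 and 86.5 CPM for *Wt* and 89.6 and 86.4 CPM for KO. The genotypes overlapped in spleen and lay side by side in lung. Its log2 difference was -0.10 (interval -0.26 to 0.05, adjusted p = 0.25) in lung and 0.04 (interval -0.09 to 0.17, adjusted p = 0.59) in spleen. It was 1.28-fold lower in lung than in spleen in KO (-0.36 ± 0.07, adjusted p = 1.3e-05) and 1.16-fold lower in *Wt* (-0.21 ± 0.07, adjusted p = 0.012). With an assumed coefficient of variation of 0.2 neither organ call was kept (adjusted p = 0.42 in KO and 0.77 in *Wt*). The *Wt* difference was lost without the first lung *Wt* library (adjusted p = 0.33) or the second spleen *Wt* library (0.23) and by DESeq2 (0.20).

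*Slfn9*, the near copy of *Slfn8*, was set apart by spleen *Wt* NK cells. Both spleen *Wt* libraries held 23.9 CPM, and the spleen KO libraries 16 and 15.7 CPM. Lung libraries held 14.2 and 12.7 CPM for *Wt* and 14.3 and 13.7 CPM for KO. The lung genotypes overlapped. In spleen the KO was 1.52-fold lower (log2 difference -0.61 ± 0.11, interval -0.83 to -0.38, adjusted p = 1.8e-05), whereas in lung the difference was 0.03 (interval -0.28 to 0.34, adjusted p = 0.89). The spleen call was lost with an assumed coefficient of variation of 0.2 (adjusted p = 0.27). The effects differed by 0.64 ± 0.19 (adjusted p = 0.0037), with every library left out in turn, but not by DESeq2 (adjusted p = 0.10) or with an assumed coefficient of variation of 0.2 (0.36). Lung was 1.75-fold lower than spleen in *Wt* (-0.81 ± 0.13, adjusted p = 3.3e-06), and in KO the difference was -0.17 (interval -0.43 to 0.09, adjusted p = 0.24). The *Wt* call was lost with the assumed coefficient of variation (adjusted p = 0.064).

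*Slfn5*, a long member that responds to interferon in other cells, was barely detected. Reads numbered 0 in both lung *Wt* libraries and 2 and 3 in the lung KO libraries. For spleen they numbered 4 and 5 (*Wt*) and 3 and 11 (KO). The gene did not pass the filter on low counts. Its antisense gene *Slfn5os* had at most 2 reads in any library.

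**Figure D2:**
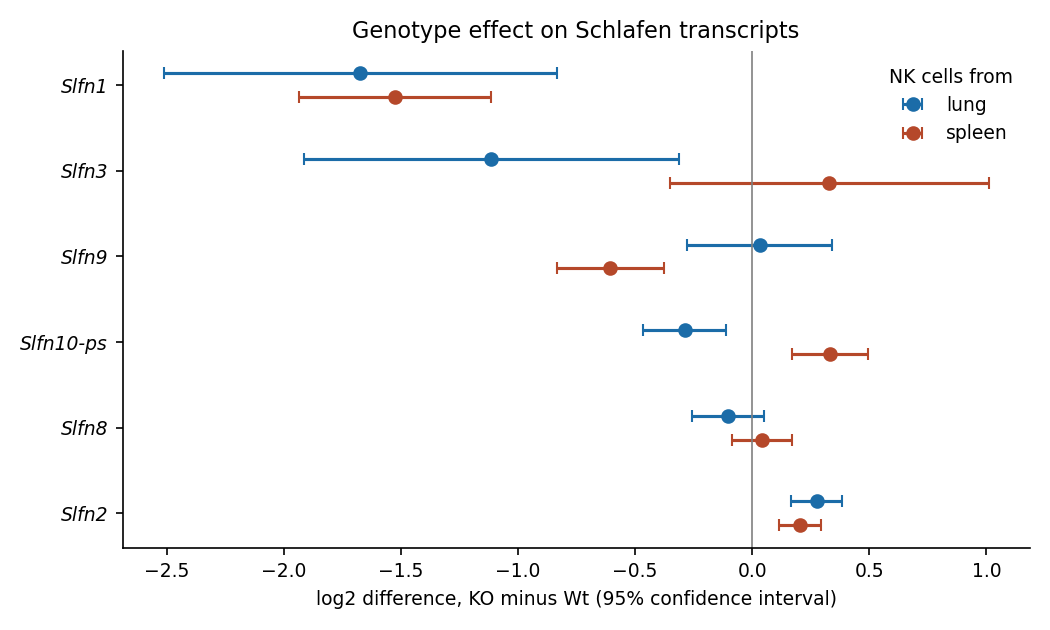
Log2 difference between KO and *Wt* (x axis) for the 5 tested members and *Slfn10-ps*, in lung (blue) and spleen (red). Points are edgeR estimates and bars their 95% confidence intervals. The intervals of *Slfn1* lie below 0 and those of *Slfn2* above 0 in both organs, while *Slfn3*, *Slfn9* and *Slfn10-ps* differ between organs.

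Counted over the family, 5 of the 7 members were tested, and the other 2 were *Slfn4* and *Slfn5*. In lung, 1 was higher in KO (*Slfn2*) and 2 were lower (*Slfn1* and *Slfn3*), where 29.2% of all tested genes were higher and 26.4% lower. In spleen, 1 was higher (*Slfn2*) and 2 were lower (*Slfn1* and *Slfn9*), against 28.2% and 28.9% of all genes. With the limit of 1.5-fold added, 2 members were called in lung and 2 in spleen, against 26.7% and 23.8%. The median log2 difference of the tested members was -0.10 in lung and 0.04 in spleen, against 0.02 and 0 over all tested genes. With so few genes these counts are near the background. Scaling by library totals instead of TMM moved the median of all genes in lung to 0.11 and the share of lung calls that were higher in KO from 52.5% to 63.3%, and *Slfn1* and *Slfn2* kept their calls and directions in both organs under it.

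For the difference of the genotype effect between organs, 1 member was higher in lung (*Slfn9*) and 1 lower (*Slfn3*), and both passed the 1.5-fold limit. Of all tested genes, 32.5% were called higher and 29% lower, and 43.3% passed both limits, so genotype effects that differed between organs were common. By library totals 63.5% of all calls in this test were higher, against 52.9%, and by TMM 48.6% of the organ calls in *Wt* were higher, against 36.9% by library totals. Between organs, 4 members were lower in lung than in spleen in *Wt* and 3 in KO. The count of higher members was 0 in both, by edgeR's adjusted and unadjusted p (under 0.05) and by DESeq2, which called 3 lower in each. Of all genes, 27.7% were higher and 29.3% lower in *Wt*, and 33.9% and 31.7% in KO. With the 1.5-fold limit, 3 members passed in *Wt* and 2 in KO, against 28.5% and 33.2% of all genes. The median of the tested members between organs was -0.79 in *Wt* and -0.72 in KO, where that of all genes was -0.01 and 0.02. The 2 genotype comparisons and the 2 organ comparisons share libraries and are not independent of each other.

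The pseudogene *Slfn10-ps* lies between *Slfn8* and *Slfn2* and was abundant. Lung libraries held 79.8 and 71.1 CPM of it for *Wt* and 63.7 and 62 CPM for KO. Spleen libraries held 56.3 and 62.2 CPM for *Wt*, and 91.9 and 72 CPM for KO. It was 1.22-fold lower in KO in lung (log2 difference -0.29 ± 0.09, adjusted p = 0.0053) and 1.26-fold higher in KO in spleen (0.33 ± 0.08, adjusted p = 0.00058), and these effects differed (-0.62 ± 0.12, adjusted p = 2.4e-05). The lung call was lost without the first lung *Wt* library (adjusted p = 0.19), without the second lung KO library (0.055), by library totals (0.051) and by DESeq2 (0.085). Setting the coefficient of variation to 0.2 removed the spleen call (adjusted p = 0.40), the difference between organs (0.25) and the lung call (0.65). The high groups of *Slfn10-ps*, lung *Wt* and spleen KO, were also the high groups of *Slfn3*. Because *Slfn8*, *Slfn9* and *Slfn10-ps* are so alike, their summed level and their shares are given as well. The lung sum ranged from 160.3 to 164.8 CPM for *Wt* and from 141.6 to 148.7 for KO. The spleen sum ranged from 161.1 to 172.6 CPM for *Wt* and from 174.1 to 197.5 for KO. *Slfn9* made up 13.9% and 14.9% of it in spleen *Wt* and 7.9% to 9.68% in the other 6 libraries. *Slfn8* kept between 43% and 50.2% throughout, and *Slfn10-ps* took 35% and 36% in spleen *Wt* against 41.4% to 48.4% elsewhere. Whether reads moved between these genes in the counting was not tested.

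**Figure D3:**
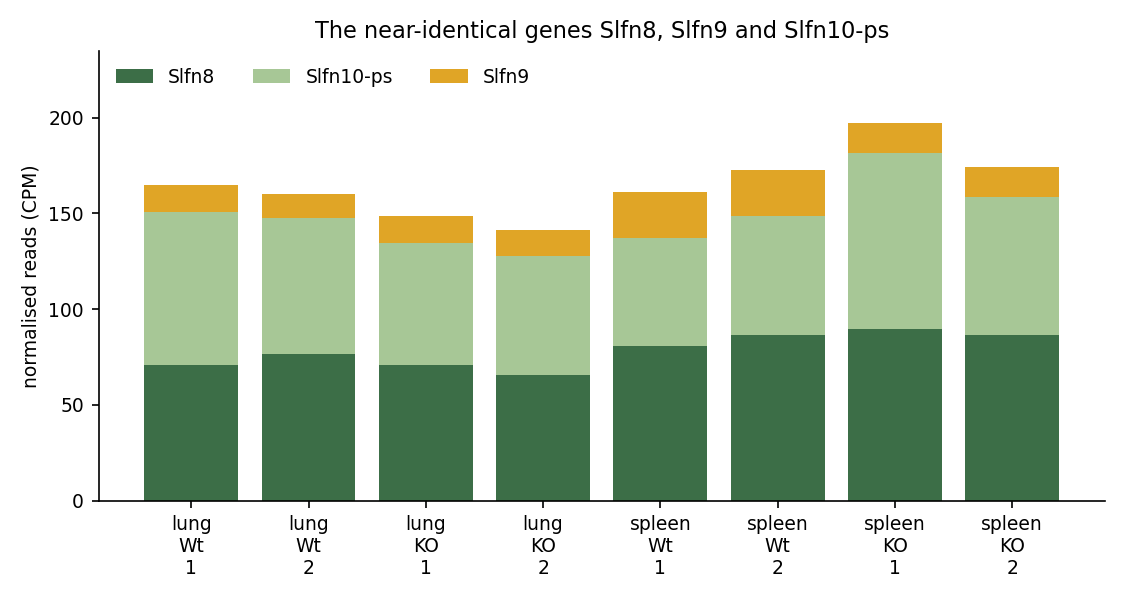
Stacked normalised reads (CPM) of *Slfn8*, *Slfn10-ps* and *Slfn9* in the 8 libraries, named by organ, genotype and replicate number. Each segment is the value of 1 gene in 1 library. The *Slfn9* segment is widest in both spleen *Wt* libraries, at 13.9% and 14.9% of the sum.

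The other Schlafen genes counted were almost silent. *Slfn14*, a long member known from platelets and red cell precursors, had 0 reads in all 8 libraries. *Slfnl1*, a Schlafen-like gene outside the cluster, had 3 reads in all, from the spleen *Wt* libraries.

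*Ccl5* and the Schlafen cluster share a region, so the genes between them were followed too. Beside the Schlafen genes and *Slfn10-ps*, 28 genes are annotated from the start of *Slfn5* to *Ccl5*, of which 19 were in the counts and 9 were tested, all of these between *Slfn3* and *Ccl5*. *Heatr9*, 3.6 kb from *Ccl5*, was 3.77-fold lower in KO in lung (log2 difference -1.91 ± 0.20, adjusted p = 1.7e-10) and 6.09-fold lower in spleen (-2.61 ± 0.19, adjusted p = 2.1e-14). *Gm11427*, a transcribed pseudogene that matches *Slfn3* at 93.5% of 1537 bases and lies 264.8 kb from *Ccl5*, was 4.06-fold lower in KO in lung (-2.02 ± 0.39, adjusted p = 3.2e-05) and 3.94-fold lower in spleen (-1.98 ± 0.28, adjusted p = 1.7e-07). The lung means were 4.17 ± 0.775 CPM (SD, n = 2) for *Wt* and 1.05 ± 0.0459 for KO. The spleen means were 5.74 ± 0.696 and 1.5 ± 0.179 CPM. These values rest on few reads, 38 and 14 in lung *Wt* against 5 and 8 in lung KO. In spleen they were 25 and 45 for *Wt* and 5 and 36 for KO. Exact 50-base windows also found in another gene made up 26.2% of *Gm11427*. They were most often shared with the overlapping gene *AI662270*, which differed by 0.00 in lung (adjusted p = 0.98) and by 0.22 in spleen (adjusted p = 0.0012).

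Other genes of the stretch had differences of both signs. *Ap2b1*, an adaptor subunit of endocytic vesicles, differed by -0.02 in lung (adjusted p = 0.87) and fell in spleen by 0.24 on the log2 scale (adjusted p = 0.0065). *Taf15*, an RNA-binding protein gene beside *Heatr9*, differed by 0.25 in lung (adjusted p = 0.25) and rose by 0.49 in spleen (adjusted p = 0.015). DESeq2 gave neither the *Taf15* nor the *Ap2b1* call in spleen (adjusted p = 0.15 and 0.14). The *Taf15* call was also lost without either spleen *Wt* library (0.077 and 0.051) or the second spleen KO library (0.08), and the *Ap2b1* call without the second spleen *Wt* library (0.075) or the second spleen KO library (0.089). The *AI662270* call in spleen was lost without the second spleen KO library (0.11). The calls of *Gm11427* and *Heatr9* in both organs were kept under every alternative run in which they were tested. *Nle1*, the nearest tested gene beyond *Slfn5*, differed by -0.44 in lung (adjusted p = 0.074) and -0.02 in spleen (adjusted p = 0.97). Of the 9 tested neighbours, 2 were lower in KO in lung (*Heatr9* and *Gm11427*), and 2 were higher and 3 lower in spleen, against 26.4% of all genes lower in lung, and 28.2% higher and 28.9% lower in spleen. Of the genes described from *Nle1* to *Heatr9*, the members and pseudogenes included, *Slfn1*, *Gm11427* and *Heatr9* were lower in KO in both organs, and *Slfn2* was higher in both. The share of all genes called the same way in both organs was not counted, so this tally has no background to set it against.

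**Figure D4:**
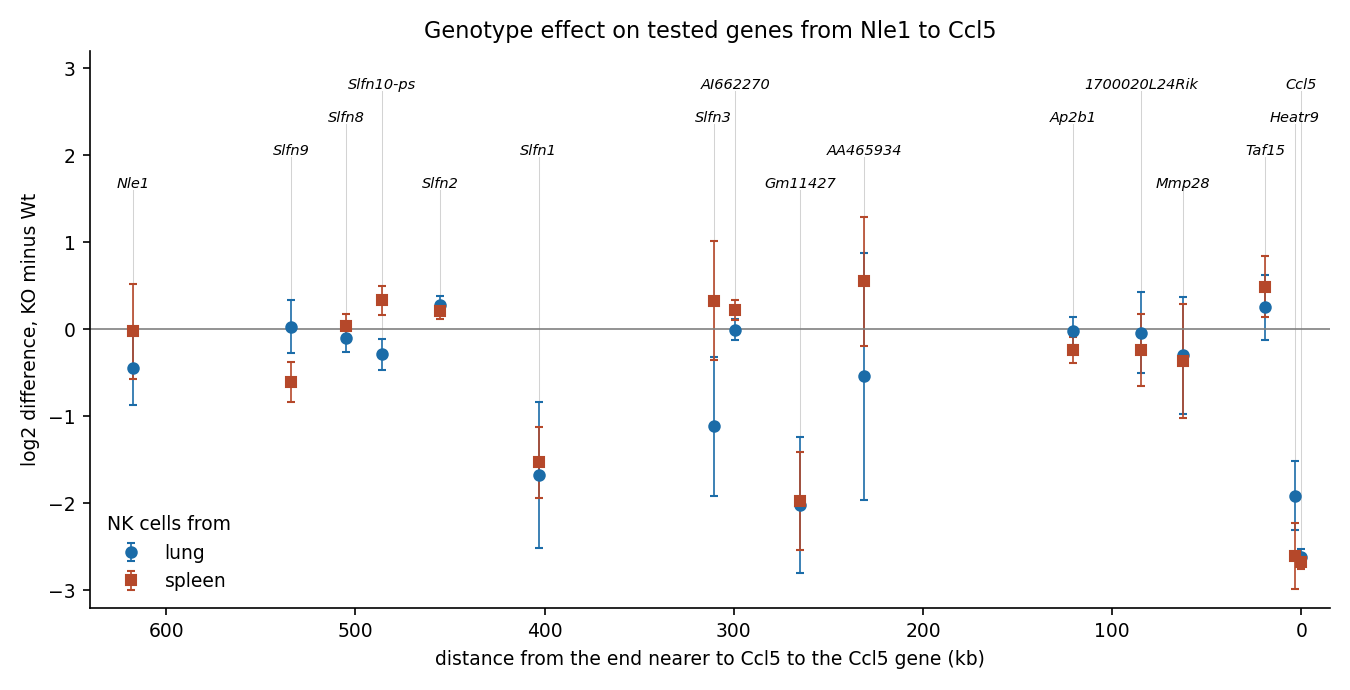
Log2 difference between KO and *Wt* (y axis) for tested genes from *Nle1* to *Ccl5* (1 is not reported here), against the distance in kb from its nearer end to *Ccl5* (x axis, *Ccl5* at the right). Circles are lung, squares spleen, and bars 95% confidence intervals. The intervals of *Ccl5*, *Heatr9*, *Gm11427* and *Slfn1* lie below 0 in both organs. The genes between them have differences of both signs, among them *Slfn3*, whose interval lies below 0 in lung only.

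Interferon induces several Schlafen genes, and lists of interferon genes are given for comparison. Of 44 interferon-stimulated genes, 40 were tested. In lung, 6 were higher in KO and 12 lower, with a median log2 difference of -0.02, where 29.2% of all tested genes were higher and 26.4% lower. These 6 genes are 15% of the list and the 12 are 30%. In spleen 16 were higher (40%) and 9 lower (22.5%), with a median of 0.06, against 28.2% and 28.9% of all genes. In lung, *Irf7*, a transcription factor that amplifies the interferon response, was higher (1.04 ± 0.11, adjusted p = 7.8e-10), and the guanylate-binding protein gene *Gbp7* was lower (-0.49 ± 0.04, adjusted p = 3.9e-12). In spleen, *Irf7* was lower (-0.59 ± 0.08, adjusted p = 2.1e-07), as was *Stat2* (-1.53 ± 0.12, adjusted p = 1.4e-13), while the interferon-inducible GTPase gene *Ifi47* was higher (0.35 ± 0.04, adjusted p = 8.5e-10). The list thus held genes moving both ways in each organ, as the Schlafen genes did. Between organs, 23 of the 40 were lower and 6 higher in lung than in spleen in *Wt*, and 27 lower and 5 higher in KO, with medians of -0.28 and -0.46. Of all genes, 29.3% were lower and 27.7% higher in *Wt*, and 31.7% and 33.9% in KO.

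Of the genes of the interferon receptors and their signalling, 12 were tested. In lung 8 of them were higher and 0 lower in KO (median 0.26, and 0 lower also by edgeR's unadjusted p and by DESeq2, which called 6 higher), against 29.2% and 26.4% of all genes. In spleen 1 was higher and 9 lower (median -0.33), against 28.2% and 28.9%. With an assumed coefficient of variation of 0.2, 2 were called higher in lung and 2 lower in spleen. *Ifnar1*, a subunit of the type I interferon receptor, was higher in lung (0.81 ± 0.07, adjusted p = 8.6e-13) and lower in spleen (-0.73 ± 0.06, adjusted p = 7.3e-13). *Socs1*, the feedback inhibitor, was higher in lung (2.15 ± 0.17, adjusted p = 4.1e-13) and lower in spleen (-1.85 ± 0.13, adjusted p = 1.4e-14). Of the tested members, *Slfn1* and *Slfn2* were called in the same direction in both organs. *Slfn3* was called in lung only and *Slfn9* in spleen only. A link between these genes and the Schlafen values was not tested.

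*Slfn2* is linked to quiescence and to tRNA, so these genes were listed beside it. Of 15 regulators of lymphocyte quiescence, 5 were higher and 2 lower in KO in lung, against 29.2% and 26.4% of all genes, and 4 were higher and 5 lower in spleen, against 28.2% and 28.9%. The shares of higher genes, 33.3% and 26.7% of the list, were near those of all genes. *Klf2*, a factor that keeps lymphocytes at rest, was higher in lung (1.21 ± 0.05, adjusted p = 1.2e-22) and lower in spleen (-1.37 ± 0.05, adjusted p = 2.7e-24), as was *Tob1*, a brake on proliferation (1.01 ± 0.12 in lung, adjusted p = 3.1e-09, and -0.78 ± 0.09 in spleen, adjusted p = 5.1e-09). Of 7 genes of tRNA cleavage and its control, 6 were tested, with 1 higher and 2 lower in lung and 2 lower in spleen, too few to set against the shares of all genes. The count of higher genes in spleen was 0 by edgeR's adjusted and unadjusted p and by DESeq2. *Elac2*, which trims the ends of tRNA precursors, was higher in lung (0.87 ± 0.16, adjusted p = 2.2e-05) and lower in spleen (-1.06 ± 0.15, adjusted p = 3e-07).

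Summed markers of other cells moved with organ and genotype, and their part in the Schlafen values was not tested. Single genes made up much of some sums, so a sum is no direct measure of other cells. *Trbc1* held 201.6 to 338.6 CPM of the T-cell sums and *Itgax* 125.2 to 152.7 CPM of the dendritic sums. *Pecam1* held 64.8 to 74.8 CPM of the epithelium and endothelium sums in spleen. The 10 T-cell markers summed in lung to between 414.5 and 433.7 CPM for *Wt* and between 325.1 and 344.5 for KO. In spleen they summed to between 548.1 and 560 CPM for *Wt* and between 599.2 and 632.5 for KO. The 8 B-cell markers summed in lung to between 5.43 and 7.57 CPM for *Wt*, with 5 of them at 0, among them *Ms4a1*, *Pax5*, *Cd22* and *Blnk*, and to between 11.8 and 12.6 for KO. In spleen the B-cell sum was 53.9 to 56.3 CPM for *Wt* and 48.2 to 50.5 for KO. The 10 markers of lung epithelium and endothelium summed to 321.7 to 332.6 CPM in lung *Wt*, 459.5 to 498.2 in lung KO, and 65.1 to 75.2 in spleen, where 8 of them were at 0. The 6 dendritic markers summed to 129.5 to 165 CPM and the 8 erythroid and platelet markers to 55.1 to 59.1 CPM in lung and 1.98 to 2.98 in spleen, with *Gp9* at 0. Of the 10 T-cell markers, *Cd4*, *Cd8a*, *Cd8b1* or *Cd5* were at 0 in some groups, and of the dendritic ones *Flt3* was at 0 in every group.

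Genes whose log2 CPM ran most like each member's over the 8 libraries were named by the Pearson correlation r, as a description of points that share libraries and fall into 4 pairs. For *Slfn1* they were *Hmgxb4* (r = 0.99), *Hacl1* (0.98) and *Otud6b* (0.97). For *Slfn2* they were *Mr1* (r = 0.997), *H2-DMb2* (0.99) and *Stmn1* (0.99), and for *Slfn3* *Gm7099*, *Ric8b* and *Ctnnb1* (each r = 0.98). For *Slfn8* they were *Gbp2* (r = 0.99), *Wwp1* (0.99) and *Gm27022* (0.98), and for *Slfn9* *Kit*, *Mlec* and *Stub1* (each r = 0.98). None of these lies on chromosome 11. The highest r between 2 tested members was 0.81, for *Slfn2* with *Slfn8* and for *Slfn1* with *Slfn9*. The named genes were picked as the highest of 12595, so their higher r says nothing of whether members run together. Between 50 (*Slfn1*) and 471 (*Slfn2*) genes reached an r of at least 0.9 with a tested member. *Gm11427* was like *Ccl5* (r = 0.94), and *Slfn1* less so (r = 0.53).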

How the data were processed

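The files hold RNA-seq read counts per gene symbol for 8 NK cell libraries, grouped by their labels. Per the labels and the study's methods, the authors aligned 50-base reads to mm10 (GRCm38) with HISAT2 2.1.0, counted them with HTSeq, and deposited raw counts without normalization. The submitters' processing notes give HTSeq 0.11.1, and the study's methods another release of it. The annotation and strand setting are not given in the sources used here.

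Lines that name no gene were left out of library sizes; reads on genes were 44.3% to 46.6% of the uniquely aligned reads. Counts were scaled by TMM, filtered with filterByExpr (12595 genes tested) and fitted in edgeR with 1 mean per group over all 8 libraries. The quasi-likelihood test with Benjamini-Hochberg adjustment was used at an FDR of 0.05, alone or with at least 1.5-fold. Standard errors came from the F statistic. CPM use TMM-scaled totals, and correlations use log2 CPM with a prior count of 2. Alternatives were DESeq2, the likelihood ratio test, other scalings and filters, a replicate block, a GC offset, an assumed coefficient of variation of 0.2, a fit of 4 libraries, and each library left out. On simulated counts (12095 genes, 200 changed, KO against Wt in lung) the quasi-likelihood test recovered 80.5%, with 4.73% of calls false. In that simulation libraries varied little and only well-counted genes were changed, whereas 55.6% of all genes were called in lung here. Its shares therefore need not hold for these data or for scarce members.

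Gene models came from GENCODE M21, whose names matched 46394 symbols, with 591 more through older symbols and 1336 unmatched. Promoters came from RefSeq (GRCm38.p6). The members and lists were chosen with earlier results of these data known. The genes named were all members, family genes, tested neighbours (the nearest beyond each end of the cluster and those called), genes with the smallest p in each list, and the 3 genes most correlated with each member. Not every gene of this rule is printed, and values of 1 neighbouring gene and 1 marker are not reported here.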

Additional observations from a re-analysis of the deposited data

Results flagged for a closer look

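The genotype effect on *Slfn9* differed between organs by the test of the difference itself. The effect in lung minus that in spleen was 0.64 on the log2 scale (adjusted p = 0.0037 by edgeR's quasi-likelihood test). The call was lost by DESeq2 (adjusted p = 0.10) and with an assumed coefficient of variation of 0.2 (0.36). Both spleen KO libraries were below both spleen *Wt* libraries, and the lung genotypes overlapped.

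The genotype effect on *Slfn3* differed between organs by -1.44 on the log2 scale (adjusted p = 0.015 by the same test), from libraries of 6 to 59 *Slfn3* reads. This call was lost by DESeq2 (adjusted p = 0.16), with the assumed coefficient of variation (0.13), and without the first lung *Wt* library (0.057), the second lung KO library (0.11) or the second spleen KO library (0.079). Both lung KO libraries were below both lung *Wt* libraries, and both spleen KO libraries were above both spleen *Wt* libraries. The same test called 61.6% of all genes.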

How the results depend on the processing

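No alternative reversed the direction of a member's called difference. *Slfn1* kept its calls in both organs under every alternative in which it was tested, with log2 differences from -2.03 to -1.26 in lung and -1.79 to -0.85 in spleen. It and *Slfn3* could not be tested with at least 10 counts in every library, which left 1 member called in lung (main count 3) and 1 in the difference between organs (main count 2). With an assumed coefficient of variation of 0.2, 1 member was called in lung, 1 in spleen and 0 in the difference between organs, 2 between organs in *Wt* and 1 in KO. DESeq2 called 0 in the difference between organs, where it called 42.3% of all genes, and 2 in lung. At an unadjusted p under 0.05 the difference between organs gave 1 member by DESeq2 and 1 with the assumed variation. Leaving out 1 library gave 1 to 2 members called in the difference between organs, 2 to 3 in lung, 3 in spleen, 3 to 4 between organs in *Wt* and 3 in KO. Where this left a group with 1 library, that library was assumed to vary like the others. Scaling by library totals shifted the median of all genes in lung to 0.11 and brought the *Slfn2* difference between organs past the threshold (0.23, adjusted p = 0.004). Over all genes, DESeq2 called 35.8% in lung and 33.1% in spleen, the assumed coefficient of variation called 9.08% to 18.4% in the 5 comparisons, and without the second spleen KO library 35.2% were called in spleen.

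Equal replicate numbers share only a number: deviations of equally numbered libraries correlated at -0.01 in lung and 0.17 in spleen. With the replicate block, 3 members were called in lung and 3 in spleen, and no call of a member changed.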
